A study of Mus musculus with 6 samples.

Results

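Genes for lymphocyte homing and adhesion were followed in T-cell acute lymphoblastic leukaemia (T-ALL) cells sorted by a c-Myc-GFP reporter. They are 31 genes of 18193 measured: 11 chemokine receptors, 2 sphingosine-1-phosphate (S1P) receptors, the P-selectin ligand gene Selplg, 7 integrin alpha and 4 integrin beta chains, 3 adhesion ligands of the immunoglobulin superfamily, Cd47 and 2 integrin activators. The genes were chosen by name. Each was represented by the Affymetrix probe set with a single gene symbol that had the highest mean log2 intensity over the 6 arrays. All leukaemias were of the genotype Notch1[delta]E mycGFP on C57BL/6, in which an activated Notch1 drives the disease and GFP reports c-Myc, and cells came from the spleen of congenic recipients, labelled as 12 weeks of age and taken 4 weeks after transplantation. CD25+ splenocytes were sorted into mycGFP+ cells (MycGFP positive, 3 arrays) and mycGFP- cells (MycGFP negative, 3 arrays), both of this same genotype and both sorted on mCherry. Which promoter drives Notch1[delta]E is not stated in the labels. The comparison asks how MycGFP positive cells, called initiating cells in the title of the series, differ from MycGFP negative cells of the same disease.

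Lymphocytes leave the blood in steps. Selectins and their ligands slow the cell, chemokine receptors, which are G protein-coupled receptors, sense chemokines on the vessel wall, and talin and kindlin then switch integrins to a state that holds ICAM or VCAM ligands. In the thymus, CXCR4 and CCR9 place early T cells near the stroma that makes their ligands, and S1PR1 lets mature T cells leave for the blood.

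The sort was checked first. Myc had intensities of 2628, 3390.5 and 2274 on the MycGFP positive arrays, against 801, 1135 and 1303 on the MycGFP negative arrays. The log2 difference of 1.37 (SE 0.24) passed the test (limma, adjusted p = 0.0329). All differences are MycGFP positive minus negative on the log2 scale. Il2ra, which encodes CD25, was well above the array medians of 30.5 to 32.7 on every array, at 5396 to 9462 in positive cells and 6777 to 10857 in negative cells. All 8 measured T lineage markers also lay above the array medians on all 6 arrays, with a summed intensity of 50760 to 59460 in positive and 61216 to 64813 in negative cells. Of 7 endothelial markers 6 lay below the medians on all arrays, and no marker of B cells, myeloid cells, NK cells, erythroid cells, platelets, endothelium or dendritic cells passed the test. The 10 myeloid markers summed to 239 to 2219 in positive cells and 304 to 9936 in negative cells, the highest sum of each group being that of the array numbered 2. The 5 NK cell markers summed to 5676 to 7889 in positive and 4801 to 5283 in negative cells, nearly all of it Gzma, a granule protease gene, while Klrd1 lay the other way without overlap, at 92.5, 23.0 and 21.2 in positive and 317, 101 and 255 in negative cells (limma, adjusted p = 0.096). RNA quality was followed by the 3' to 5' ratio of Gapdh control probe sets, which was 1.48 to 1.58 on positive and 1.58 to 1.89 on negative arrays. The same ratio for actin overlapped, at 1.72 to 1.85 on positive and 1.54 to 1.87 on negative arrays. The part of these markers and ratios in the results was not tested. With so few arrays all values are imprecise, and in sorted bulk samples fewer cells expressing a gene and less RNA per cell cannot be told apart.

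Homing genes were mostly at lower values in MycGFP positive cells, but few passed the test. Cxcr3 and Itgal were called lower, and none of the 31 was called higher (limma, two-sided, Benjamini-Hochberg adjusted p under 0.05 over all genes). Over all genes 1.51% were called lower and 4.62% higher, 6.13% in all. At an unadjusted p under 0.05, 7 members were lower and 0 higher, where 7.35% of all genes were lower and 14.7% higher. The difference was negative for 24 members and positive for 7, where it was negative for 48.4% of all genes. The median difference of the members was -0.28, against 0.01 over all genes. Centring each array on the median of its genes moved the median of all genes to -0.14 and that of the members to -0.43, with 27 of 31 negative beside 65.7% of all genes. In 8 members all 3 positive values lay below all 3 negative ones, and 0 showed the opposite, beside 11.2% and 17% of all genes, 28.1% in either direction. The 8 were Cxcr3, Cxcr4, S1pr4, Itgal, Itgb2, Icam2, Pecam1 and Cd47.

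**Figure D1:**
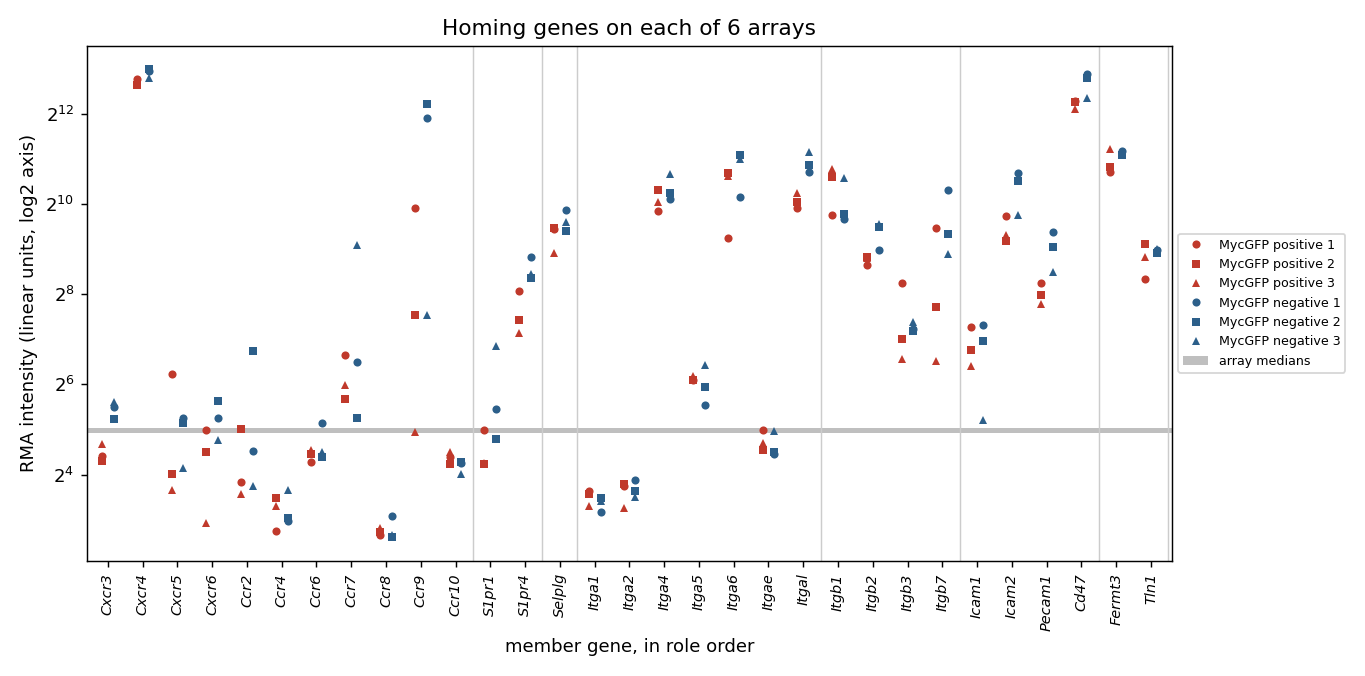
RMA intensity (log2 axis) of each of 31 homing genes on 3 MycGFP positive (red) and 3 MycGFP negative (blue) arrays, with symbols for the array number and a grey band for the array medians of 30.5 to 32.7. Cxcr4 is bright and tightly grouped, whereas Ccr9, Ccr7 and Itgb7 spread widely within a group.

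Neither the levels nor the precision were the same across the 31 genes. On all 6 arrays 18 members lay above the array median, 5 (Ccr4, Ccr8, Ccr10, Itga1 and Itga2) lay below it on all 6, and 8 lay on both sides. Values under the median may be background, so a difference there is uncertain. Among the 18 brighter members the median difference was -0.40, against 0.11 for the 9289 genes equally above the median on all arrays, and in 7 of the 18 all positive values lay below all negative ones and in 0 above, beside 13.7% and 26.6% of those 9289 genes.

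The array numbers were taken as pairs, since arrays of the same number deviated together. With the replicate block 4 members were lower, Cxcr3 (adjusted p = 0.0313), Itgal (0.0393), Pecam1 (0.0416) and S1pr4 (0.0454), and 0 were higher, where 1.95% of all genes were lower and 5.75% higher in the same fit. Within the pairs, 14 members were lower in the positive array of all 3 numbers, beside 21.3% of all genes. Only Itgb1 was higher in all 3, beside 25.9% of all genes. The members were chosen with results of these arrays known, so these counts describe them and are no test of the list.

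**Figure D2:**
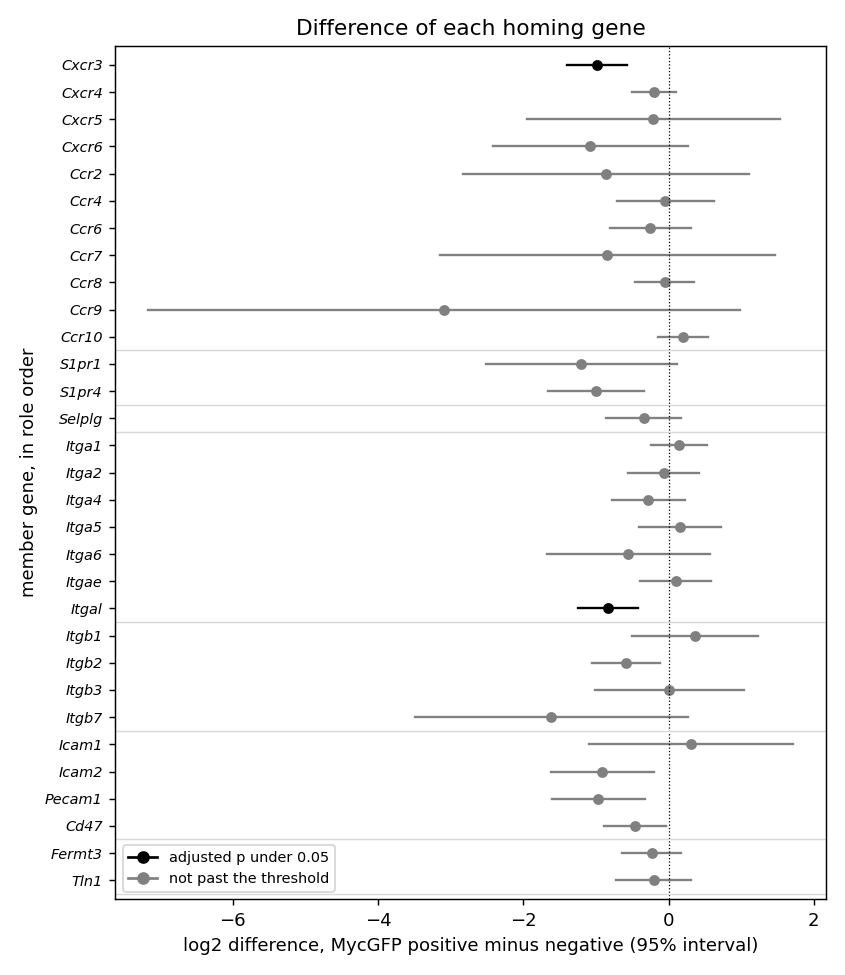
Log2 difference of each homing gene, MycGFP positive minus negative, with its 95% interval from limma, in role order. The black points, Cxcr3 at -0.99 and Itgal at -0.84, passed the test, and the interval of Ccr9 runs from -7.17 to 0.99.

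The promoters are shown for 4 members whose results are described next, Cxcr3 and S1pr4, which were lower in every pair and called under the block, and Ccr9 and Itgb7, which had the most negative differences. These are RefSeq sequences of GRCm38.p6, from 250 bases before to 50 after the start. In the promoter table used, 19 of the 31 genes have an entry. Itgal and Pecam1, also lower in every pair and called under the block, have none. Cxcr3 lies at chrX:101734098-101734397 on the minus strand, S1pr4 at chr10:81500088-81500387 on the minus strand, Ccr9 at chr9:123766961-123767260 on the plus strand and Itgb7 at chr15:102231886-102232185 on the minus strand. Capitals mark matches to CCNCNCCC, a box of the type that KLF factors bind, on either strand.
Cxcr3: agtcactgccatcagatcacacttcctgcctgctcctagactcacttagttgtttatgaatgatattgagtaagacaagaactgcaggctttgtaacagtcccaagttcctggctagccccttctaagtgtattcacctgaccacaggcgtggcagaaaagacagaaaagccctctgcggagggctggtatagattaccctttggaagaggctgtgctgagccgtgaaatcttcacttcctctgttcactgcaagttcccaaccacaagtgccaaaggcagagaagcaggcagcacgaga
S1pr4: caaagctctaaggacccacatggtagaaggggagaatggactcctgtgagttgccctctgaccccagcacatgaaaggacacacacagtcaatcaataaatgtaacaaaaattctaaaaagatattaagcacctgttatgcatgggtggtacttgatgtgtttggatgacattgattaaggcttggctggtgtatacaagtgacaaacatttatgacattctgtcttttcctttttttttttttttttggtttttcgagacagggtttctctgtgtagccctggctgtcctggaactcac
Ccr9: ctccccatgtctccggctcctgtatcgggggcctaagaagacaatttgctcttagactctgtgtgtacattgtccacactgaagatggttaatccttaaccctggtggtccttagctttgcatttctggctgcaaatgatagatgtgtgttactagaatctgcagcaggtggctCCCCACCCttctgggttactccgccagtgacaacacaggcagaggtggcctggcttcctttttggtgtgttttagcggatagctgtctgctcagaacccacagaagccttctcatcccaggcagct
Itgb7: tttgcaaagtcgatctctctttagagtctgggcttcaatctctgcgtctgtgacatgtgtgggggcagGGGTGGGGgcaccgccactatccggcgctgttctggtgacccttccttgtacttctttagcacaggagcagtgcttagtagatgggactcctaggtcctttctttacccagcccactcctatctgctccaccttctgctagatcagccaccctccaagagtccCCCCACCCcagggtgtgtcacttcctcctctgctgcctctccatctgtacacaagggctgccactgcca
The Ccr9 promoter holds 1 such match, starting at base 175 of the printed run, and the Itgb7 promoter holds 2, starting at bases 69 and 232. The box occurs in 11 of the 21 promoters listed for members, or 52.4%, and in 49.5% of all 32851 promoters in the table. CACGTG, the E-box that MYC and MAX bind, occurs in 0 of the 21 member promoters and in 7.15% of all promoters, searched on both strands. A match describes these windows only.

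Among the chemokine receptors, Cxcr3 was the only gene of 11 to pass the test. The difference was negative for 10 of the 11, beside 48.4% of all genes. Of these 10, Cxcr5, Ccr2, Ccr4, Ccr7 and Ccr8 changed sign in at least 1 fit with a single array left out. CXCR3 is the receptor for the interferon-induced ligands CXCL9, CXCL10 and CXCL11 and marks effector T cells. Its intensities were 21.2, 19.7 and 25.6 in MycGFP positive cells, against 44.9, 37.4 and 49.2 in MycGFP negative cells. The groups did not overlap, and the array medians fell between them, so each positive value was in the range where background is likely. The log2 difference of -0.99 (SE 0.17) passed the test (limma, adjusted p = 0.0316), and within the pairs it was -1.09, -0.93 and -0.94. The call was lost when any single array was left out, with differences of -1.10 to -0.90 and adjusted p of 0.0648 to 0.112. With 32 added to each intensity before the log2 the difference was -0.48.

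Cxcr4, the receptor for CXCL12 in bone marrow and thymus, was among the brightest members. Its intensities were 6997, 6356 and 6745 in positive cells and 7874, 8085 and 7108 in negative cells. All 3 positive values lay below the negative ones, but the difference of -0.20 (SE 0.12) did not pass (limma, adjusted p = 0.432). Its 95% interval was -0.50 to 0.10.

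Ccr9, the receptor for CCL25 in thymus and small intestine, had the most negative difference of the members and also the widest interval. It read 954, 186 and 31 on positive arrays 1, 2 and 3, against 3855, 4756 and 186 on negative arrays 1, 2 and 3. The arrays numbered 3 were the lowest of each group, and negative array 3 was at the level of positive array 2, so the groups overlapped. Within the pairs the differences were -2.01, -4.67 and -2.59. The difference of -3.09 (SE 1.68) did not pass without the block (limma, adjusted p = 0.361) and lay just outside the threshold with the replicate block (adjusted p = 0.0503). Without both arrays numbered 2 it was -2.30 (adjusted p = 0.745). All 4 other Ccr9 probe sets also had negative differences, from -3.60 to -1.48. The least extreme of them had no overlap between groups, with 36.7, 35.0 and 32.2 in positive cells and 98.7, 168 and 53.9 in negative cells (limma with every named probe set tested, adjusted p = 0.0841).

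Ccr7, which guides naive T cells to lymph nodes, was set apart by a single array. Its intensities were 101, 50.9 and 63.0 in positive cells and 89.8, 38 and 547 in negative cells. Negative array 3 stood far above the other 5 arrays. The difference was -0.84 (SE 0.95, limma adjusted p = 0.695) and turned to 0.23 without negative array 3.

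Ccr2, a receptor for CCL2 that is typical of monocytes, was 14.3, 32.1 and 11.9 in positive cells and 22.9, 106 and 13.4 in negative cells. The array numbered 2 was the highest of each group, and the difference of -0.86 (SE 0.81) did not pass (limma, adjusted p = 0.63). Of 10 myeloid markers 4 (Lyz2, S100a8, S100a9 and Fcgr3) were also highest on the array numbered 2 in both groups, and the other 6, among them Cd68 and Csf1r, were not. Lyz2, the lysozyme gene of myeloid cells, was 42.3, 168 and 36.5 in positive cells and 52.9, 850.3 and 30.1 in negative cells. S100a8, a neutrophil gene, was 364, 871 and 42.7 in positive and 224, 4467 and 26.2 in negative cells. Their part in the Ccr2 values was not tested.

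Cxcr6, the receptor for CXCL16, was 31.9, 22.6 and 7.61 in positive cells and 38.1, 49.7 and 27.3 in negative cells, near or below the array medians. The groups overlapped and the difference of -1.08 (SE 0.55) did not pass (limma, adjusted p = 0.331). Its other probe set gave -0.95, with groups that did not overlap (limma with every named probe set tested, adjusted p = 0.217). Cxcr5, the receptor that takes lymphocytes to B cell follicles, was 75.2, 16.2 and 12.7 in positive cells and 38.4, 35.5 and 17.6 in negative cells. Positive array 1 was the highest of the 6. Of 7 B cell markers 4 (Ms4a1, Cd79a, Blnk and Fcer2a) were also highest there, and 3 (Cd79b, Cd22 and Pax5) were highest on negative array 3. Blnk, Fcer2a and Pax5 lay below the array medians on all 6 arrays, so where they were highest is uncertain. The 7 markers summed to 127 to 498 in positive and 229 to 810 in negative cells, and their part was not tested.

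The skin, gut and regulatory T cell receptors Ccr4, Ccr6, Ccr8 and Ccr10 were dim. Their intensities ranged from 6.37 to 23.3 in positive cells and from 6.12 to 35.6 in negative cells, and only Ccr6 on negative array 1 was above an array median. Their differences were -0.04, -0.25, -0.05 and 0.20, all with overlapping groups. Ccr9, Cxcr6 and Ccr2 lie close together on chromosome 9, with 1 other protein-coding gene between the first pair and 4 between Cxcr6 and Ccr2 in the RefSeq order.

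**Figure D3:**
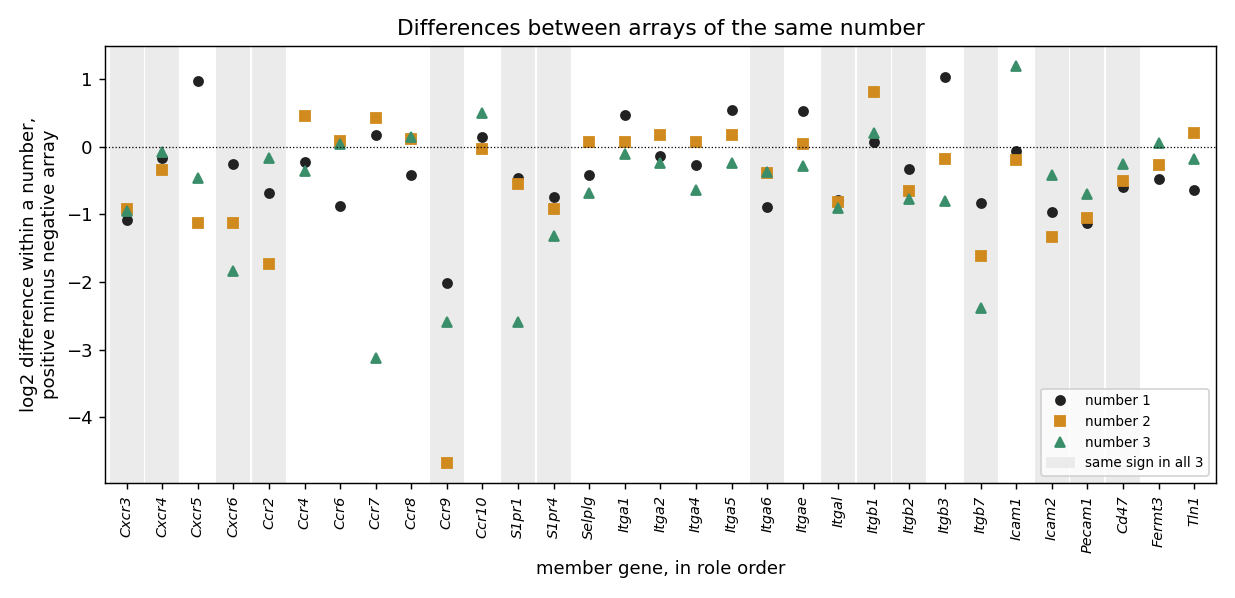
Log2 difference between the MycGFP positive and the MycGFP negative array of the same number (symbols) for each homing gene, with shading where all 3 differences have the same sign. Cxcr3, Itgal, S1pr4 and Pecam1 have negative differences in all 3 numbers, within -1.32 to -0.70. Ccr9 runs from -4.67 to -2.01 and Ccr7 from -3.12 to 0.42.

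Both S1P receptors had lower values in MycGFP positive cells, and neither passed the unblocked test. S1pr4, a receptor found mainly on lymphocytes and other blood cells, was 269, 172 and 141 in positive cells, against 449.7, 328 and 351 in negative cells. The groups did not overlap. The difference was -0.995 (SE 0.27, limma adjusted p = 0.0913), and the replicate block gave an adjusted p of 0.0454, the lowest over its 16 alternatives, where the highest was 0.382. S1pr1, the receptor for exit from thymus and lymph node, was 31.9, 18.8 and 19.2 in positive cells and 43.9, 27.5 and 115 in negative cells. The highest value was again on negative array 3, as for Ccr7, and positive array 1 lay above negative array 2. The difference of -1.20 (SE 0.54) did not pass (limma, adjusted p = 0.267), and the differences within the pairs were -0.46, -0.55 and -2.59.

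Selplg encodes PSGL-1, the main ligand for P-selectin on leukocytes. It was 699, 708 and 481 in positive cells and 929.8, 673 and 777 in negative cells, with overlapping groups and a difference of -0.34 (SE 0.21, limma adjusted p = 0.431). The 95% interval was -0.86 to 0.17.

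Integrins are pairs of an alpha and a beta chain. ITGAL and ITGB2 form LFA-1, which binds ICAM1 and ICAM2. Itgal fell to 965, 1053 and 1202 in MycGFP positive cells, against 1659.8, 1856 and 2263 in MycGFP negative cells. The groups were clearly apart, with means of 1073 ± 119.7 and 1926 ± 308 (SD, n = 3 each). The difference of -0.84 (SE 0.17) passed the test (limma, adjusted p = 0.0444), which is 1.79-fold lower, and the pairs gave -0.78, -0.82 and -0.91. The other Itgal probe set had nearly the same difference, -0.83 (SE 0.20), without overlap, and an adjusted p of 0.06 with every named probe set tested. Without any array other than negative array 1, the call was lost, with adjusted p of 0.0815 to 0.142.

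Itgb2, the beta chain of LFA-1 that other leukocyte integrins share, was 399, 454 and 443 in positive cells and 501, 718 and 754 in negative cells. The groups did not overlap, but the difference of -0.59 (SE 0.19) did not pass (limma, adjusted p = 0.138). Without negative array 1 it was -0.77 (adjusted p = 0.0479), and its adjusted p over the 16 alternatives ran from there to 0.487. Whether Itgal and Itgb2 differ in their change was not tested. Itgam, the myeloid partner of Itgb2, lay below the array median on all 6 arrays. Of the 10 myeloid markers, Itgam among them, 3 lay below it on all arrays and 7 on both sides. S100a8, S100a9 and Lyz2 reached 4467, 4372 and 850 on negative array 2. The part of these markers in the Itgb2 values was not tested.

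Itgb7 pairs with Itga4 in the receptor for MADCAM1 of gut vessels, and with Itgae in the receptor for E-cadherin. Itgb7 was 706, 209 and 91.6 in positive cells and 1261, 641 and 476 in negative cells. Positive array 1 lay above the negative arrays 2 and 3. The difference was -1.61 (SE 0.77, limma adjusted p = 0.297), and the pairs gave -0.84, -1.62 and -2.38. With the replicate block the adjusted p was 0.0611. Its alpha partners had small differences, of -0.28 for Itga4 and 0.10 for Itgae, and Itgae was near the array median.

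Itga4 was 912, 1273 and 1046 in positive cells and 1098, 1211 and 1625 in negative cells, with an interval of -0.78 to 0.23. Itgb1, the beta chain of the VLA integrins that bind matrix and VCAM1, was 861, 1541 and 1739.8 in positive cells and 817, 876 and 1512 in negative cells. The arrays of a group differed more than the groups did, and the difference of 0.36 (SE 0.36) did not pass (limma, adjusted p = 0.642). It was nevertheless positive in each pair, at 0.08, 0.82 and 0.20. Of 5 other Itgb1 probe sets 4 had positive differences, from 0.27 to 1.12, and the last, dim on all arrays, had -0.09. The probe set with 1.12 was higher in positive cells without overlap. It read 34.5, 34.7 and 71.2 in positive and 16.4, 18.8 and 27.0 in negative cells (limma with every named probe set tested, adjusted p = 0.117).

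**Figure D4:**
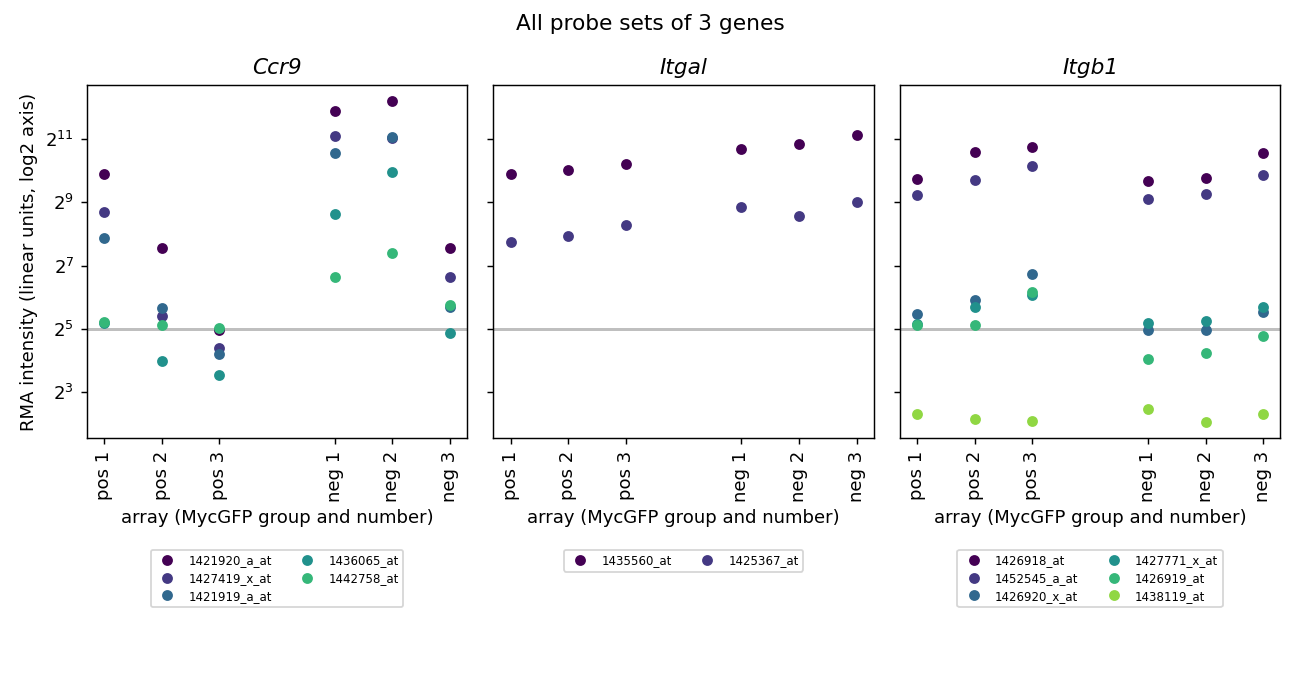
RMA intensity (log2 axis) of every single-symbol probe set of Ccr9, Itgal and Itgb1 on the MycGFP positive (pos) and MycGFP negative (neg) arrays, with the array medians as a grey band. All 5 Ccr9 probe sets are lower on arrays numbered 3 than on arrays numbered 1 of the same group, and both Itgal probe sets lie lower on all positive arrays than on the negative ones.

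Itga6, a laminin receptor chain, was 610.4, 1654 and 1566 in positive cells and 1130.3, 2162 and 2039.7 in negative cells. The array numbered 1 was the lowest of each group, and the difference of -0.55 (SE 0.46) did not pass (limma, adjusted p = 0.576). The differences within the pairs were -0.89, -0.39 and -0.38. Itga5, the fibronectin receptor chain, was 68.4, 69.0 and 72.5 in positive and 47.0, 61.2 and 85.7 in negative cells, with a difference of 0.16 (SE 0.23). Another Itga5 probe set had a difference of -2.47, with 441 on negative array 1 alone and 8.64 to 22.2 on the other 5 arrays. The collagen receptor chains Itga1 and Itga2 were below the array medians throughout, at 9.58 to 13.9 in positive and 8.98 to 14.8 in negative cells.

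Itgb3, the beta chain of the vitronectin receptor and of the platelet fibrinogen receptor, was 304, 128 and 94.6 in positive cells and 149.6, 146 and 166 in negative cells. Positive array 1 was the highest and positive array 3 the lowest of the 6, and the difference was 0.01 (SE 0.42). The 95% interval was -1.02 to 1.04. The 6 platelet markers summed to 131 to 138 in positive and 137 to 153 in negative cells. Pf4, the platelet chemokine gene, Gp1bb and Gp6 lay below the median on all arrays. Gp9 lay above it on all arrays, and Ppbp and Itga2b lay on both sides. The part of these markers in the Itgb3 values was not tested.

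Of the adhesion ligands, Icam2 and Pecam1 had lower values in MycGFP positive cells without passing the test. Pecam1, which encodes CD31, a homophilic adhesion molecule of leukocytes and endothelium, was 305, 254 and 220.0 in positive cells, against 669, 528 and 358 in negative cells. The difference was -0.97 (SE 0.26, limma adjusted p = 0.0904), and the pairs gave -1.13, -1.06 and -0.70. Over the alternatives its adjusted p ran from 0.0416 with the replicate block to 0.431. Icam2, a ligand of LFA-1, was 844, 576 and 639 in positive cells and 1654, 1458 and 857 in negative cells, with no overlap and a difference of -0.91 (SE 0.29, limma adjusted p = 0.132). Without negative array 3 both passed, Pecam1 at -1.21 (adjusted p = 0.0466) and Icam2 at -1.20 (adjusted p = 0.0493). Cdh5, Kdr and Tek, which define endothelium, were below the array medians on all 6 arrays, as were Emcn, Flt1 and Cldn5 of the same list. Egfl7 was above the medians on all arrays and higher in positive cells without overlap, at 97.1, 88.2 and 98.7 against 77.5, 62.3 and 61.4 in negative cells (limma, adjusted p = 0.105). Cldn5 was also higher without overlap. The 7 endothelial markers, with Egfl7 the largest term, summed to 143 to 159 in positive and 116 to 135 in negative cells, and their part was not tested. Pecam1 and Icam2 lie near each other on chromosome 11, with 2 protein-coding genes between them.

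Icam1, the inducible ligand of LFA-1, was 154, 109 and 84.4 in positive cells and 160.4, 125 and 36.8 in negative cells. Negative array 3 was the lowest, and the difference of 0.31 (SE 0.58) became -0.33 without it. Cd47, the signal that restrains uptake by macrophages and also associates with integrins, was bright, at 4962, 4916 and 4380.0 in positive cells against 7512, 7025 and 5233 in negative cells. The groups did not overlap, and the difference was -0.46 (SE 0.18, limma adjusted p = 0.198). All 4 other Cd47 probe sets also had negative differences, from -1.19 to -0.05.

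Neither integrin activator passed the test. Fermt3, the kindlin of blood cells, was 1662, 1815 and 2369 in positive cells and 2312, 2184 and 2287 in negative cells, with a difference of -0.23 (SE 0.17) and an interval of -0.64 to 0.17. Tln1, which encodes talin, was 324, 554 and 449.6 in positive cells and 507, 480.2 and 509 in negative cells, with a difference of -0.21 (SE 0.21) and an interval of -0.72 to 0.31. Their adjusted p was 0.51 for Fermt3 and 0.661 for Tln1 (limma). The other Tln1 probe sets disagreed in sign. One had -1.57 without overlap, at 15.8, 21.8 and 19.0 in positive and 34.6, 127 and 39.3 in negative cells (limma with every named probe set tested, adjusted p = 0.127). Another had 0.39 with overlapping groups.

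Further genes of homing and adhesion came from 9 lists with 161 genes, of which 151 were measured. None of the 151 was called higher and 4 were called lower (limma, adjusted p under 0.05). At an unadjusted p under 0.05 there were 5 higher and 26 lower. Over all genes these shares were 1.51% lower and 4.62% higher for the adjusted test, and 7.35% lower and 14.7% higher unadjusted, so 4 of 151 is near the share over all genes. Their median difference was -0.11. Of 31 genes of chemoattractant receptor signalling, Dock8 and Rhoh were called lower. Of 26 genes for switching on integrins from inside the cell, Stk4 was called lower. Dock8, an exchange factor for CDC42 that lets lymphocytes squeeze through tissue, was 472, 541 and 449.9 in positive cells and 1061, 2554 and 1366 in negative cells, a difference of -1.67 (SE 0.33, limma adjusted p = 0.0423). Rhoh, a GTPase gene of blood cells, had -0.73 (SE 0.15, adjusted p = 0.0454), and Stk4, the MST1 kinase gene needed for T cell adhesion and egress, had -0.61 (SE 0.13, adjusted p = 0.0463). Of 4 transcription factors listed as regulators of homing genes, only Foxo1, whose product activates homing genes of resting T cells, passed the test. Its intensities were 476, 443 and 548 in positive and 1069, 1050.4 and 1425 in negative cells. All 4 had negative differences, but the groups of Klf2 and Foxo3 overlapped. Within the pairs Klf2 had 0.89, 0.40 and -2.09, and Foxo3 had 0.16, -0.35 and -0.42. Klf3, like Foxo1, was lower without overlap, at -0.57 (SE 0.17, limma adjusted p = 0.117).

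None of 13 other chemokine receptors, 17 chemokine ligands, 11 other S1P genes, 20 selectin genes, 13 other integrin chains or 16 other adhesion ligands passed the test, with medians of -0.11, -0.12, 0.04, -0.03, -0.08 and -0.04. At an unadjusted p under 0.05 these 6 lists held 3 higher and 6 lower genes, beside 14.7% higher and 7.35% lower of all genes. The lower genes were thus near their share over all genes. Of the chemokine ligands and other receptors, 10 each lay below the array medians on all 6 arrays.

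**Figure D5:**
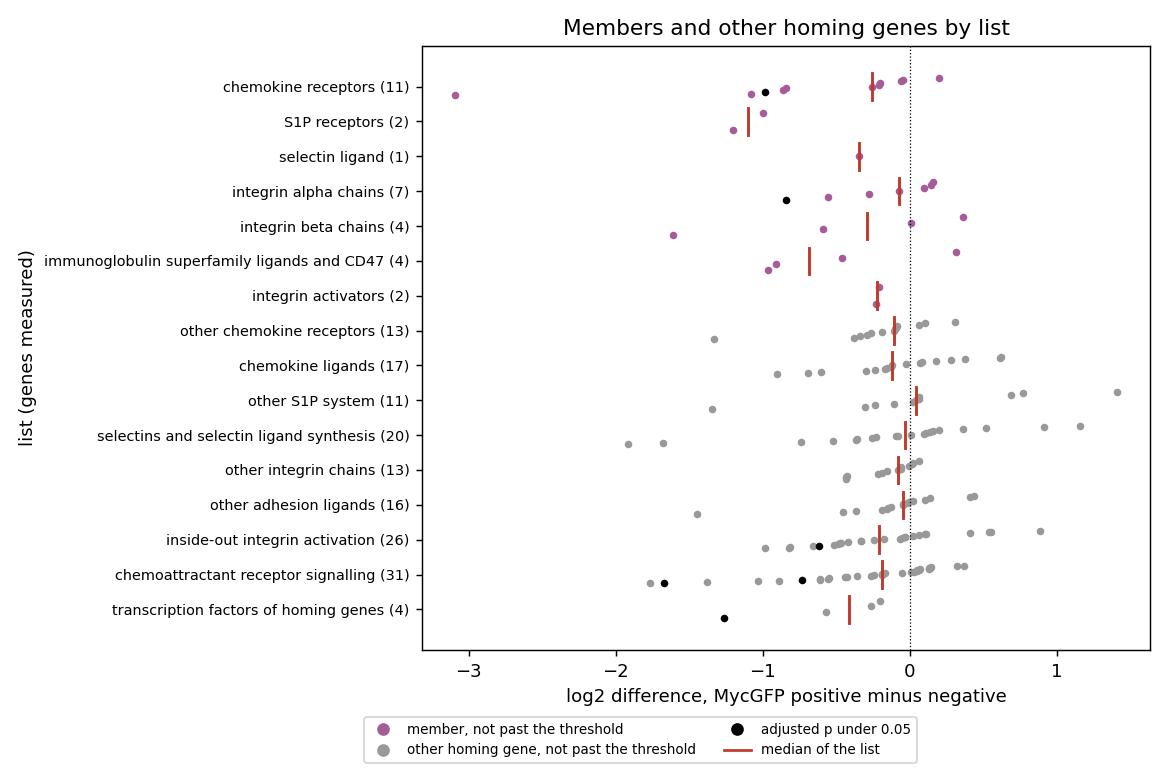
Log2 difference, MycGFP positive minus negative, of each member (purple) and of 151 other homing genes (grey), by list, with the list median as a red bar and called genes in black. Cxcr3 and Itgal are the called members, and Dock8, Rhoh, Stk4 and Foxo1 the others called, all at negative differences.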

How the data were processed

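RNA of sorted leukaemia cells, 5 ng per sample, was amplified with the Ovation system and hybridised to Affymetrix arrays, per the labels' protocols. The authors deposited linear intensities made with RMA, per the submitters' processing notes, which name no version. RMA scales the arrays to one another, so shifts of total RNA cannot be seen. Of 45101 probe sets, 34945 had 1 gene symbol, 932 several and 9160 none, and 64 control probe sets were left out. Symbols were updated by Entrez identifier from RefSeq (34741 matched). Listed genes without a single-symbol probe set were not analysed here.

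Log2 of the intensity was fitted with limma 3.58.1 in R 4.3.3 (lmFit, eBayes, 2 groups, 4 residual and 2.17 prior degrees of freedom), tested on simulated data. Groups came from sample titles. All 31 members are named, with genes past the threshold on the other lists. The members and lists were chosen with earlier results of these data known. Deviations from the group means correlated at r = 0.38, 0.21 and 0.39 between same-numbered arrays and at -0.32 to -0.03 otherwise, so the numbers were taken as pairs. Subtracting the mean of 3 arrays itself pushes the other correlations below 0. Alternatives were the replicate block, each array left out, other choices and filters of probe sets, centring, an offset, a trended variance and array weights. The design describes 3 independent leukaemias, but no label ties a number to one, and p-values measure the spread between these samples.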

Additional observations from a re-analysis of the deposited data

How the results depend on the processing

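Calls depended on single arrays. Leaving out each array in turn gave 0 to 862 higher and 0 to 238 lower genes, against 840 and 275 in the full fit, and 0 to 2 lower members against 2. Members called higher stayed at 0. Other homing genes gave 0 to 1 higher and 0 to 3 lower, against 0 and 4. No gene was called without positive array 2, where unadjusted p-values under 0.05 numbered 2209 for higher and 976 for lower genes. The 2 called were Itgal and Itgb2 without negative array 1, and Icam2 and Pecam1 without negative array 3. Members called lower were also 0 without negative array 2, positive array 1 or positive array 3. Leaving out both arrays numbered 2, chosen after seeing the data for their myeloid marker levels, gave 0 higher and 0 lower genes, 0 lower members and 0 lower homing genes (1728 genes higher and 759 lower unadjusted). Lower members were 4 with the replicate block and 1 with the most variable probe set per gene, with only genes above the median level, or with a trended and robust variance. Other homing genes called lower were 7 with the block, 10 with the mean of all probe sets (and 1 higher), 8 with the most variable probe set and 7 with array weights. Centring the arrays gave 502 higher genes and 381 lower. The replicate block added the calls of S1pr4 and Pecam1 and changed no other member's. The following members, none of them called, changed sign. Leaving out single arrays gave ranges of -1.01 to 0.27 for Cxcr5, -1.49 to 0.0093 for Ccr2, -0.20 to 0.18 for Ccr4, -1.69 to 0.23 for Ccr7, -0.14 to 0.093 for Ccr8, -0.17 to 0.10 for Itga2, -0.051 to 0.38 for Itga5, -0.023 to 0.26 for Itgae, -0.48 to 0.36 for Itgb3, -0.33 to 0.73 for Icam1 and -0.39 to 0.0012 for Tln1. Cxcr5 had 0.25 without both arrays numbered 2. Array weights gave 0.081 for Ccr4 and -0.26 for Itgb3. Centring gave -0.0033 for Itga1, -0.052 for Itgae and -0.14 for Itgb3. The most variable probe set gave -0.072 for Itga1, 0.082 for Itga4 and -2.47 for Itga5, whose mean over probe sets was -0.53 and whose value without cross-hybridising probe sets was -2.47. The cause of these shifts was not tested. Dim members limit what the array can show, and Cxcr3 was not among the genes above the median level.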

Other observations

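Cd44, the hyaluronan receptor of activated and memory T cells, was named after its values were seen because its pattern across arrays resembled that of Ccr9. It read 641, 379 and 115 on MycGFP positive arrays 1, 2 and 3, against 2900.0, 2967 and 175 on MycGFP negative arrays 1, 2 and 3. The arrays numbered 3 were the lowest of each group, as they were for Ccr9, and the differences within the pairs were -2.18, -2.97 and -0.61. Its overall difference of -1.92 (SE 1.25) did not pass (limma, adjusted p = 0.455). Cd69, whose product holds S1PR1 inside the cell, was 320.0, 452 and 318 in positive cells and 1076, 1168 and 594 in negative cells, also named after its values were seen. The groups did not overlap, and the difference of -1.34 (SE 0.30) lay just outside the threshold (limma, adjusted p = 0.0577). Klf2, likewise chosen after its values were seen, a transcription factor that drives S1pr1 in resting T cells, was 824, 294 and 150.3 in positive cells and 444, 222 and 640.3 in negative cells. Negative array 3, where S1pr1 and Ccr7 were highest, had the second highest Klf2 value, below positive array 1.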
